A study of Mus musculus with 8 samples.

Results

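The change from round to elongating spermatids was followed in libraries labelled as Carm1 knockout, with 2 elongating KO-labelled libraries set against 2 round KO-labelled libraries, 4 of the 8 libraries of the study. All genes with a deposited value of at least 10 in at least 2 of the 8 libraries were taken, which kept 15685 of 16349 genes. The study sequenced polyadenylated RNA of mouse spermatids, and its stated aim was to find genes changed by Carm1 knockout in round and in elongating cells. Its title names the p300, ACT and CREM proteins, a transcription axis of the postmeiotic male germ line. CARM1 methylates arginines of histones and of coactivators such as p300.

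The elongating KO-labelled and round KO-labelled groups carry the genotype label cKO, and the elongating WT and round WT groups the label WT, all on the C57BL/6 strain background with no treatment. The allele, the Cre driver and the age of the animals are not given in the labels. Cells of each sample were purified from 8 testes by elutriation, which separates cells by size, so a library is a bulk sample of a pooled cell fraction. The labels do not say whether the libraries within a group come from different animals. The p-values therefore reflect the spread of these libraries alone, and that spread may be technical. Reads per library, recovered from the deposited values, numbered 23317319 and 23526694 in elongating KO-labelled and 18318721 and 20720496 in round KO-labelled cells. The wild-type libraries, which served as the reference for the same stage change, held 23410938 and 21090436 reads in elongating and 17190962 and 18143970 in round cells.

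Carm1 itself, on chromosome 9 from 21546894 to 21592623 in GRCm38, measured 1174 and 1343 in the round and 8157 and 7993 in the elongating KO-labelled libraries. Its elongating WT libraries measured 4308 and 4534 and its round WT libraries 1649 and 1686. The gene was thus lower under the knockout label in round cells and higher under it in elongating cells. A count over the whole gene cannot show whether an exon was deleted, so the groups are called KO-labelled throughout. The log2 stage change of Carm1 was 2.68 ± 0.05 in KO-labelled and 1.41 ± 0.05 in WT cells.

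Spermiogenesis is the remodelling of a round haploid cell into a sperm. The acrosome, a secretory vesicle, spreads over the nucleus, histones are exchanged for transition proteins and then for protamines, and the tail is built from an axoneme wrapped in dense fibres, mitochondria and a fibrous sheath. Transcription stops while the nucleus condenses, and many transcripts made in round cells are stored as ribonucleoprotein and translated later. CREM, with its coactivator ACT (encoded by Fhl5), drives many of the genes of this program through cAMP response elements near their start sites.

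Promoter sequences of genes that rose between the stages are given here because CREM is named by the study and its element can be read in them. Each is the 150 bases before the RefSeq start on GRCm38.p6, written along the gene's own strand, and for Akap4 and Gapdhs the first of 2 RefSeq starts is shown. The window of the second start held no match in Akap4 and 2 in Gapdhs. Capitals mark the 8 letters TGANNTCA, a palindromic form with the ends of the cAMP response element, which reads the same on either strand.
Tnp1, chr1:73015900-73016049, minus strand: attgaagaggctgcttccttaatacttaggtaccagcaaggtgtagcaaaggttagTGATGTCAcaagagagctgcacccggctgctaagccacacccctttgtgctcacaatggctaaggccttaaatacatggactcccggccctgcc
Prm1, chr16:10796824-10796973, minus strand: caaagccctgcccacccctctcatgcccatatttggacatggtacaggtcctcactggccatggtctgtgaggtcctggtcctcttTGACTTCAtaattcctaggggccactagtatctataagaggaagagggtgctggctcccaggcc
Prm3, chr16:10790915-10791064, minus strand: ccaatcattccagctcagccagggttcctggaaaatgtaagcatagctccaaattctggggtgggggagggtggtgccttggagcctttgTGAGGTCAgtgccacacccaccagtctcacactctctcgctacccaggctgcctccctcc
Prm2, chr16:10792106-10792255, minus strand: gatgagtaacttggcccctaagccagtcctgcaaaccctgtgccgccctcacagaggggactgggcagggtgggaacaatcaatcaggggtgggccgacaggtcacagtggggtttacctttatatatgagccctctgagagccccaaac
Tnp2, chr16:10788656-10788805, minus strand: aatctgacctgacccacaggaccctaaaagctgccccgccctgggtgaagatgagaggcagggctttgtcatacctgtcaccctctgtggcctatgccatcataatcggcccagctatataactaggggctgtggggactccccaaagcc
Akap4, chrX:7067365-7067514, plus strand: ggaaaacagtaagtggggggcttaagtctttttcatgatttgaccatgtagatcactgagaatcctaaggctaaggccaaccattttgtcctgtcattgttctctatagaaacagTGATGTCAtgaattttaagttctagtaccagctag
Gapdhs, chr7:30743682-30743831, minus strand: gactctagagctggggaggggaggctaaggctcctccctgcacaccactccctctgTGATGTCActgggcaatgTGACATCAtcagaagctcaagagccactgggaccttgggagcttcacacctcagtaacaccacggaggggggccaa
The match began 94 bases before the start in Tnp1, 64 in Prm1, 60 in Prm3 and 35 in Akap4. Gapdhs held 2 matches, 94 and 76 bases before its start. These letters were not found in the windows of Prm2 and Tnp2, which lie in the same stretch of chromosome 16 as Prm1 and Prm3. Over all promoter windows of this length 8.37% held the motif, and over the 11901 tested genes with a window 9.31% did. It was found in 156 of 1189 genes that rose over 8-fold (13.1%) and in 30 of 217 that fell over 8-fold (13.8%). The full element TGACGTCA stood in 2.66% of these tested genes and in 1.93% of those that rose over 8-fold. A match is a description of the letters and not evidence of binding.

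Values are normalised read counts, the authors' values, which are whole reads scaled by 1 factor per library. The test was limma on log2(value + 1) in one model of the 4 groups, two-sided, and genes were called where the p adjusted by Benjamini-Hochberg over all tested genes was under 0.05. A log2 change is elongating minus round and carries the standard error of that fit, with n = 2 libraries per group and 4 residual degrees of freedom. The added 1 understates the change of low genes. Words such as rose and fell are used only for called genes.

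Most measured genes moved between the stages. Of 15685 genes, 6677 rose (42.6%) and 6552 fell (41.8%), while 2456 were not called. Large rises outnumbered large falls: 1642 genes rose over 8-fold (10.5%) and 294 fell over 8-fold (1.87%), and 85 rose over 32-fold while 18 fell over 16-fold. The median log2 change was 0.01. This median is set by the authors' scaling, whose implied size factors were 0.516 and 0.530 in elongating and 1.57 and 1.77 in round KO-labelled libraries although elongating libraries held more reads. When each library was scaled to its total, the median became -1.87, and 2617 genes rose (16.7%) while 11422 fell (72.8%). All 2617 of those rises and all 6552 falls of the deposited scaling were called the same way under both scalings, and 2549 rises became falls. A rise in both scalings therefore describes a gene that gained share of the RNA, and each gene list is given with its count under total scaling. List counts are to be read beside the shares of all genes, 42.6% higher and 41.8% lower, or 16.7% and 72.8% under total scaling. RNA content per cell was not measured, and in bulk fractions fewer cells of a type and less RNA per cell cannot be told apart.

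**Figure D1:**
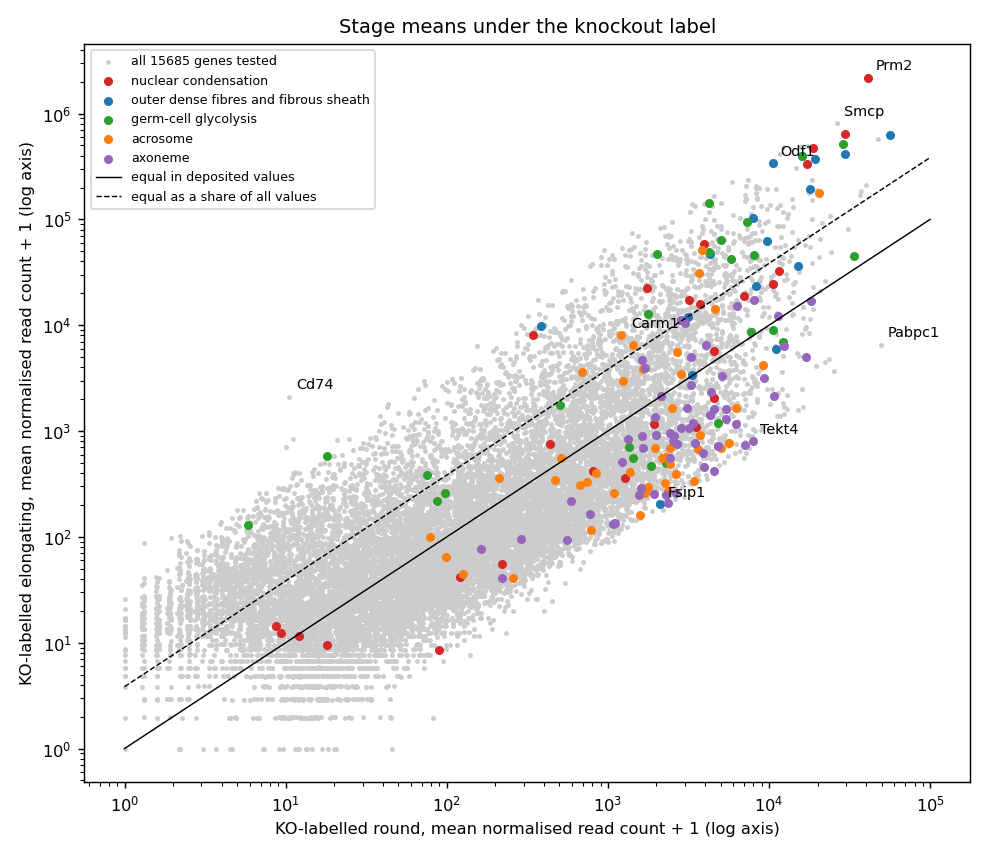
Mean normalised read count plus 1 of each tested gene in round (horizontal) and elongating (vertical) KO-labelled libraries on log axes, n = 2 libraries per group, with 5 gene lists coloured. The solid line marks equal deposited values and the dashed line an equal share of the summed values. Prm2, Smcp and Odf1 lie above both lines and Tekt4 below both, and the condensation genes lie on either side of them, with 9 of 26 higher and 17 lower under total scaling.

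The gain went to few genes. Genes that rose over 8-fold took 13.8% and 13.98% of reads in the round and 63.4% in each of the elongating KO-labelled libraries. In round libraries 10.2% and 10.3% of reads fell on the 50 leading genes, and in elongating libraries 34.9% and 34.8%. Prm2 alone held 4.90% and 4.88% of elongating reads, whereas the most read gene of round libraries, Odf2, held 0.493% and 0.470%. These shares were given by the rises themselves and describe how concentrated the RNA became.

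Genes were ranked by reads per kilobase of exon, a rough scale between genes, since all annotated exons of a gene were counted. Odf2, the most read gene of round libraries, has 9919 bases of annotated exon and is not among the 12 leading genes there. Elongating KO-labelled libraries were led by Prm2 with 1277700 and 1283330 reads per kb. Tnp2 followed with 604910 and 616630, then Smcp with 459755 and 464687, Prm1 with 434795 and 425862 and Tnp1 with 401169 and 390343. The order of these 5 was the same in both libraries. The next 7 were Dbil5, 4933411K16Rik, Odf1, Gsg1, Gapdhs, Spz1 and Reep6. Round KO-labelled libraries were already led by 5 of the same genes, with 80314 and 99962 reads per kb for Tnp2 and 71413 and 83324 for Prm2. Behind Tnp1, Prm1 and Smcp came Ldhc, Ybx2, Fabp9, Gstm5, Meig1, Dbil5 and Ropn1l. Ldhc, the lactate dehydrogenase of germ cells, barely moved in deposited values, from 35135 and 32601 to 46214 and 43666 (log2 change 0.41 ± 0.04), and fell by 1.53 under total scaling. Ropn1l, a fibrous sheath protein with the docking domain of a kinase regulatory subunit, fell in deposited values as well, from 10849 and 11163 to 5904 and 5961.

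Genes of nuclear condensation moved in opposite directions by role. All 5 transition protein and protamine genes tested rose, each over 8-fold and under total scaling too. Prm2, the more abundant mouse protamine, measured 40597 and 41972 in the round and 2215310 and 2162870 in the elongating KO-labelled libraries. Every elongating value was far above every round value, and the log2 change was 5.73 ± 0.02 (adjusted p = 4.9e-23). Prm1, the other protamine, measured 17809 and 19566 in the round and 481489 and 458415 in the elongating KO-labelled libraries, a log2 change of 4.65 ± 0.05. Tnp1 and Tnp2, the transition proteins that precede protamines on DNA, rose by 4.27 ± 0.03 and 4.44 ± 0.04. Prm3, a protamine-cluster gene whose product is acidic and cytoplasmic, rose by 3.69 ± 0.04. All 5 calls came from a comparison that called 42.6% of all genes higher and 41.8% lower.

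Histone genes divided. Of 3 testis linker histone genes, H1fnt and Hils1 rose by 3.87 ± 0.03 and 2.10 ± 0.04, and Hist1h1t fell by 0.91 ± 0.35, from 19.7 and 14.6 to 9.70 and 7.54. The Hist1h1t call was lost in DESeq2 (adjusted p = 0.146), and in limma without elongating KO-labelled replicate 2 (adjusted p = 0.0874) or round KO-labelled replicate 1 (adjusted p = 0.169). H2afb1, an X-linked short H2A variant of spermatids, rose from 328 and 352 to 8083 and 8218. It was the only 1 of 8 core histone variants to rise, and 5 fell (1 rose and 7 fell under total scaling). H2afz, the H2A variant of active promoters, went from 1301 and 1252 to 374 and 337, and the replacement histone genes H3f3b and H3f3a had log2 changes of -1.68 ± 0.04 and -1.15 ± 0.04. H2afx, the variant phosphorylated at DNA breaks, changed by -2.01 ± 0.15. Factors of the exchange itself were less uniform, with 6 of 10 called higher and 3 lower, but 1 higher and 9 lower under total scaling. Cdyl, a chromodomain protein, rose in both scalings, from 3232 and 3125 to 17612 and 16648. Brdt, the testis bromodomain protein that binds acetylated histones, Chd5, a remodeller, and Psme4, a proteasome activator that acts on histones, rose in deposited values by 0.34 ± 0.04, 1.48 ± 0.03 and 1.19 ± 0.03 and fell under total scaling. Kat5, an acetyltransferase of histone H4, and Kdm3a, a demethylase needed for protamine expression, fell by 0.96 and 0.73 in deposited values. The whole condensation list of 26 counted 14 higher and 9 lower, with a median of 0.70 (9 higher and 17 lower under total scaling).

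**Figure D2:**
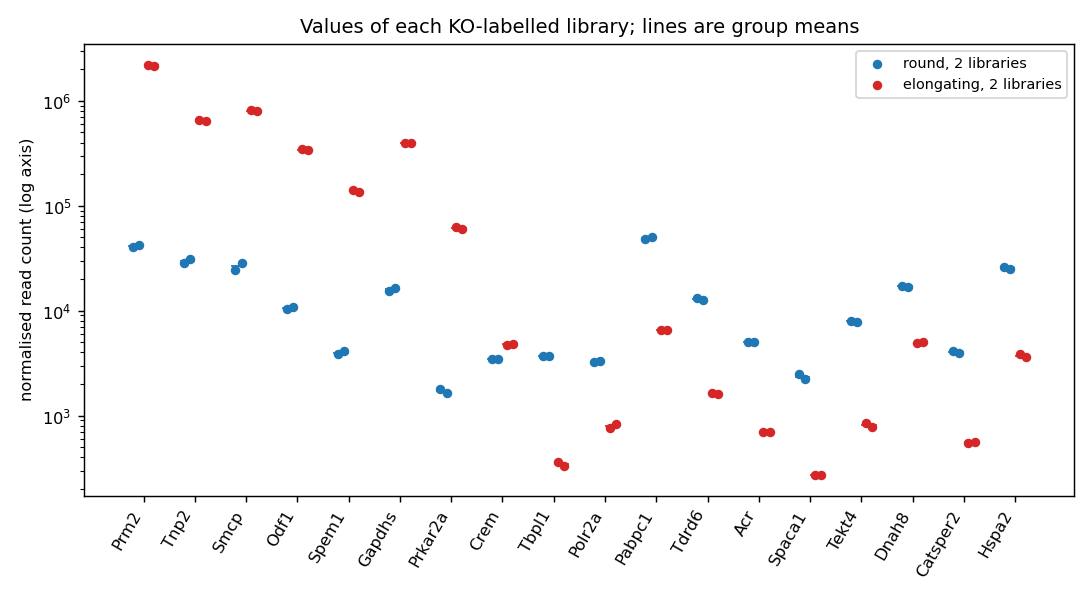
Normalised read count (log axis) of 18 genes in each KO-labelled library, with a point for each of 2 round and 2 elongating libraries and a short line at each group mean. The 2 libraries of a group lie close together for every gene shown. Of all tested genes, 42.6% were called higher and 41.8% lower.

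Genes that regulate transcription were divided. Of 20, 10 rose and 10 fell in deposited values, against 42.6% and 41.8% of all genes, and 3 rose and 17 fell under total scaling, against 16.7% and 72.8%. Crem, whose testis isoform activates postmeiotic genes, measured 3468 and 3496 in the round and 4728 and 4834 in the elongating KO-labelled libraries. The groups did not overlap and the log2 change was 0.46 ± 0.03, but it became -1.48 under total scaling. Fhl5, which encodes ACT, rose by 1.38 ± 0.04 and fell by 0.56 under total scaling. Kif17, the kinesin that carries ACT out of the nucleus, rose in both, from 8557 and 8678 to 63571 and 63755, as did Fhl4, a LIM-only relative of ACT, with a change of 2.32 ± 0.03. The acetyltransferase genes Crebbp and Ep300, the latter encoding p300, had changes of -1.64 ± 0.07 and -1.02 ± 0.06. All 3 germ-cell relatives of basal factors fell. Tbpl1, the TBP-like factor needed for spermiogenesis, went from 3718 and 3681 to 359 and 334, a change of -3.41 ± 0.05. Taf7l and Gtf2a1l, which replace a TFIID subunit and a TFIIA subunit, changed by -2.90 ± 0.09 and -1.32 ± 0.04. Rfx2, Sox30 and Tcfl5, factors that switch on round spermatid genes, rose by nearly the same amount, 1.58 ± 0.03, 1.59 ± 0.04 and 1.58 ± 0.03, and each fell by about the same small amount under total scaling, 0.36, 0.35 and 0.36. Spz1, a basic helix-loop-helix factor of the testis, was the largest rise among the 20 regulators, from 14595 and 14757 to 307700 and 300595. Foxj1, the factor of motile cilia, fell from 4362 and 4670.3 to 902 and 963.

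The general machinery fell more uniformly. Of 75 tested genes for RNA polymerase II, Mediator and general factors (76 listed), 9 rose and 52 fell, with a median of -1.22 (1 rose and 72 fell under total scaling). Polr2a, the largest polymerase subunit, measured 3225 and 3296 in the round and 760.2 and 833 in the elongating KO-labelled libraries. Tbp, the TATA-binding protein, changed from 1949 and 2168 to 254 and 173, a log2 change of -3.29 ± 0.12. Med7 and Med24, Mediator subunits, fell by 2.94 ± 0.09 and 2.76 ± 0.05, and Taf12, a TFIID subunit, by 2.82 ± 0.11. Med13l, a subunit of the Mediator kinase module, ran against its group and rose from 371 and 385 to 2781 and 3054, in both scalings. Splicing factors and hnRNPs moved likewise, with 10 of 66 higher, 53 lower and a median of -0.95 (1 higher and 64 lower under total scaling); Snrpg, a core spliceosome subunit, changed by -2.97 ± 0.15. Of 293 tested Zfp genes (318 in the table), 71 rose and 153 fell (15 and 250 under total scaling), with changes of -3.56 ± 0.04 in Zfp646 and 4.30 ± 0.05 in Zfp706.

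Acrosome genes and genes of the theca, the cytoskeletal shell between acrosome and nucleus, moved in opposite directions. Of 44 acrosome genes, 12 rose and 29 fell, with a median of -1.33 (6 and 38 under total scaling). Acr, the acrosin protease, measured 4979.7 and 5086 in the round and 692 and 699 in the elongating KO-labelled libraries. Elongating values were below every round value, and the log2 change was -2.85 ± 0.04. Spesp1 and Acrv1, proteins of the equatorial segment and the matrix, changed by -2.88 ± 0.04 and -2.42 ± 0.05. Membrane proteins followed: Spaca1, needed to shape the acrosome, went from 2471 and 2223 to 273 and 271, and Spaca3 from 1627 and 1782 to 252 and 269.6. Zpbp and Zpbp2, which bind the zona pellucida, changed by -2.75 ± 0.05 and -3.35 ± 0.07, and Spam1, the sperm hyaluronidase, by -1.96 ± 0.07. Dpy19l2, which anchors the acrosome to the nuclear envelope, changed by -2.01 ± 0.04.

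Members of the Izumo family did not move together. Izumo1, the sperm protein that binds the egg receptor, went from 1947 and 1969 to 688 and 705. Izumo4 fell further, by 3.29 ± 0.06 on the log2 scale. Izumo2 rose from 1509 and 1352 to 6639 and 6378, under total scaling too. Other acrosome-list genes that rose in both scalings were Crisp2, a sperm-egg adhesion protein (3.12 ± 0.03), Sppl2c, an intramembrane protease (3.76 ± 0.04), Prss37 (2.74 ± 0.05) and Fam71f1 (3.09 ± 0.03).

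Of 34 genes of head shaping and the theca, 25 rose and 9 fell, with a median of 1.98 (16 and 16 under total scaling). Spem1, a cytoplasm-removal protein, measured 3840.2 and 4085 in the round and 141684 and 135106 in the elongating KO-labelled libraries, a change of 5.13 ± 0.04 and the largest of this list. The actin-related theca genes Actl9, Actrt2 and Actl7a rose by 3.97 ± 0.03, 3.87 ± 0.04 and 2.37 ± 0.03. Actl7b, the next gene to Actl7a on chromosome 4, fell from 11605 and 11039 to 2300.1 and 2287. It was the exception among 14 theca genes in deposited values, where 13 rose (10 rose and 2 fell under total scaling). Plcz1, the sperm factor that starts egg calcium waves, rose by 2.66 ± 0.04, and Cylc2, a cylicin, by 2.04 ± 0.05; the latter was not called under total scaling. Genes for the manchette and the head-tail junction divided by member, 12 of 20 higher and 8 lower (6 and 14 under total scaling). Hook1, a manchette linker, rose by 3.05 ± 0.04, Spata6 and Pmfbp1, of the neck, by 3.28 ± 0.03 and 2.99 ± 0.03, Klhl10, a cullin adaptor, by 3.01 ± 0.03, and Oaz3, the germ-cell antizyme, from 15146 and 16386 to 492887 and 468250. Sun5, which ties the tail to the nuclear envelope, and Ccdc42 changed by -1.45 ± 0.05 and -2.60 ± 0.08.

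**Figure D3:**
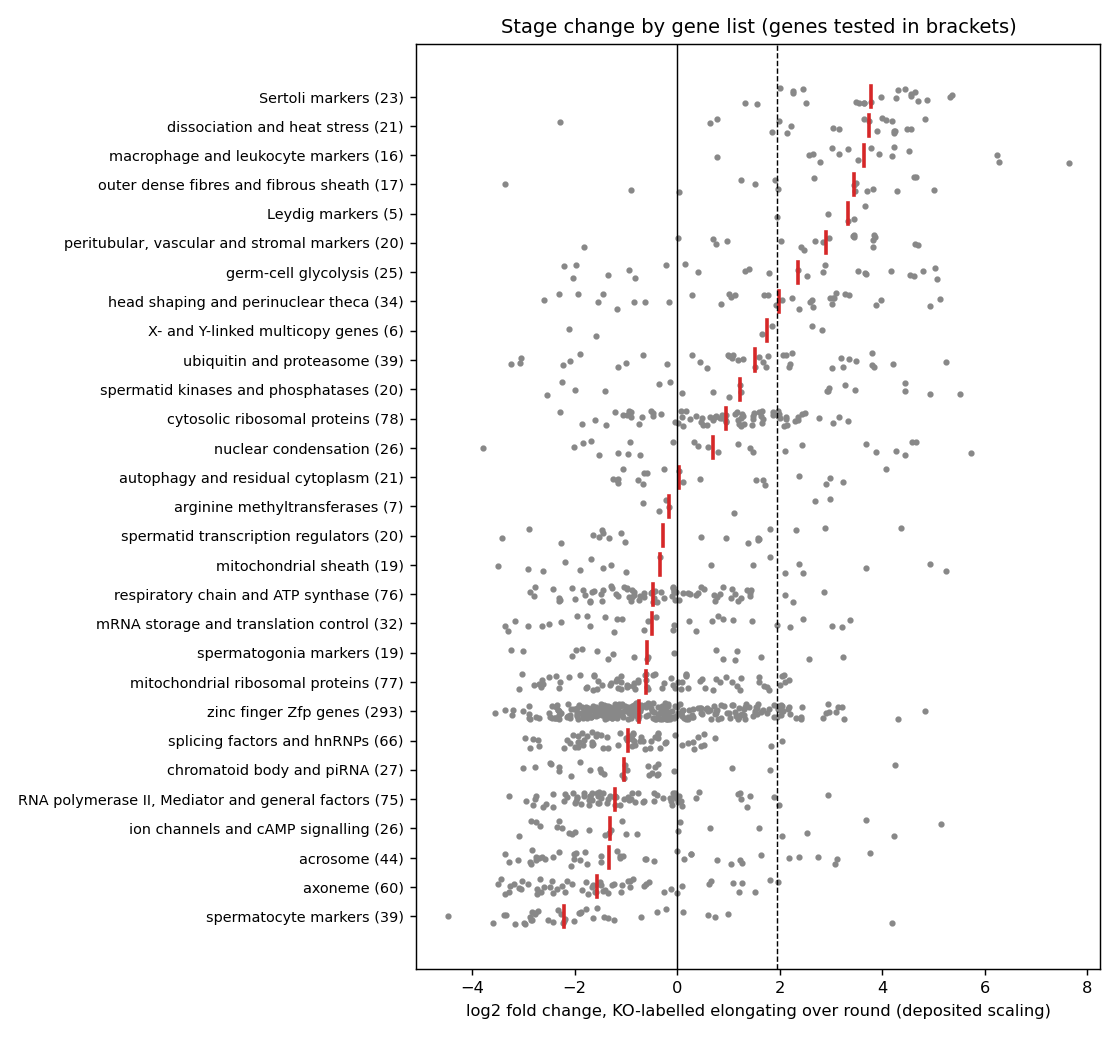
Log2 change from round to elongating KO-labelled libraries for each tested gene (grey points) of the 29 lists with at least 5 tested genes, and the list median (red line). The solid line is no change in deposited values and the dashed line no change in share of the summed values. Outer dense fibre and fibrous sheath genes have a median of 3.45 and axoneme genes a median of -1.56.

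The tail showed the sharpest split, of its outer dense fibres and fibrous sheath against its axoneme. Of 17 genes for outer dense fibres and the fibrous sheath, 14 rose and 2 fell, with a median of 3.45 (10 and 5 under total scaling). Odf1, a main dense fibre protein, measured 10422 and 10797 in the round and 344838 and 340491 in the elongating KO-labelled libraries, a log2 change of 5.01 ± 0.03. Odf2 rose by 3.49 ± 0.03 from a level that was the most read of all genes in round libraries. Odf3b went from 375 and 394 to 9895 and 9624, while its relative Odf3, at 3183 and 3506 in round and 3499 and 3329 in elongating libraries, overlapped between stages and was not called. Odf3 was called lower under total scaling. Akap4, the X-linked anchoring protein that builds the fibrous sheath, measured 18518 and 19825 in the round and 384690 and 364376 in the elongating KO-labelled libraries, a change of 4.29 ± 0.03. Its partner Akap3 rose less, by 1.25 ± 0.03, and fell by 0.69 under total scaling. Tcp11 and Fscb rose by 3.82 ± 0.03 and 3.47 ± 0.03, whereas Fsip1, also of the sheath, fell from 2127 and 2095 to 213 and 196.

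Axoneme genes fell almost throughout: of 60, 50 fell and 9 rose, with a median of -1.56 (59 fell and none rose under total scaling). Tekt4, a tektin filament protein, measured 7944 and 7864 in the round and 844 and 773 in the elongating KO-labelled libraries. Tekt2 changed by -2.34 ± 0.05. Dnah10 and Dnah8, heavy chains of dynein arms, changed by -3.09 ± 0.06 and -1.78 ± 0.03. Armc4, a docking factor of dynein arms, changed by -3.04 ± 0.07. Radial spoke genes Iqub and Rsph6a changed by -3.43 ± 0.05 and -2.67 ± 0.05, and Cfap53 by -3.36 ± 0.13. The central pair genes Hydin and Spag17 rose in deposited values by 1.26 ± 0.03 and 1.10 ± 0.03, and fell by 0.68 and 0.85 under total scaling. Among 19 mitochondrial sheath genes 9 rose and 10 fell (6 and 13 under total scaling). Smcp, the cysteine-rich protein of the mitochondrial capsule, measured 24539 and 28284 in the round and 814072 and 799807 in the elongating KO-labelled libraries. Spata18 rose by 5.25 ± 0.03, Txndc2, a sperm thioredoxin, by 3.68 ± 0.05, and Gpx4, which becomes a structural protein of the sheath, by 2.45 ± 0.03. Slc25a31, the germ-cell carrier of ATP and ADP, and Vdac2, a pore of the outer membrane, fell by 3.49 ± 0.25 and 2.62 ± 0.04.

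Genes for energy and motility signalling were again divided. Of 25 glycolysis genes 18 rose and 7 fell, with a median of 2.35 (13 and 12 under total scaling). Gapdhs, the sperm glyceraldehyde phosphate dehydrogenase bound to the fibrous sheath, measured 15440.1 and 16451 in the round and 396096 and 393001 in the elongating KO-labelled libraries. Of the 9 isozymes with a germ-cell gene 7 rose and 2 fell, with a median of 2.84 (0.90 under total scaling), among them Pgk2 and Aldoart1 at 3.69 ± 0.03 and 2.84 ± 0.03. Of the 16 widely used enzymes and carriers 11 rose and 5 fell, with a median of 1.60 (-0.33 under total scaling), and Gpi1, Hk1 and Pkm rose by 5.06 ± 0.03, 4.17 ± 0.02 and 4.54 ± 0.03. Aldoa and Tpi1 rose by 3.54 ± 0.03 and 3.66 ± 0.03. Slc2a3, a glucose transporter, and Pfkp fell by 2.03 ± 0.04 and 2.21 ± 0.06. Respiratory chain and ATP synthase genes gave 22 higher and 43 lower of 76, with a median of -0.47 (3 and 72 under total scaling), and Uqcrb changed by -2.80 ± 0.12 and Ndufa13 by 2.87 ± 0.05.

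Most channel genes fell in deposited values. Of 26 genes for ion channels and cAMP signalling, 7 rose and 17 fell, with a median of -1.31 (5 and 21 under total scaling). All genes tested gave 42.6% higher and 41.8% lower (16.7% and 72.8% under total scaling). Catsper2, a pore subunit of the sperm calcium channel, went from 4151 and 3969 to 555 and 566, and Catsper1 changed by -1.32 ± 0.04. The auxiliary subunit gene Catsperg1 rose in both scalings, by 2.53 ± 0.04 in deposited values. Catsperd, with values of 1569 and 1459.9 in round and 1594 and 1469 in elongating libraries, was not called and was lower under total scaling. Slc9c1, the sperm sodium-proton exchanger, changed by -2.68 ± 0.05, against Atp1a4, the sodium pump of sperm, at 3.68 ± 0.03. Adcy10, the soluble adenylyl cyclase, rose by 2.04 ± 0.03. Prkar2a, a regulatory subunit of protein kinase A, measured 1794 and 1643 in the round and 62339.9 and 60184 in the elongating KO-labelled libraries, while the catalytic subunit gene Prkaca fell from 1743 and 1846 to 324 and 385. Akap1, an anchor of the kinase on mitochondria, rose by 4.23 ± 0.02.

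Kinases of spermatids and the ubiquitin system mostly rose in deposited values. Of 20 genes in the kinase and phosphatase list, which also holds the centrosomal protein gene Spatc1, 14 rose and 6 fell. Their median was 1.23 (9 and 11 under total scaling). Tssk6, a testis-specific kinase needed for condensation and a gene with 1 exon, measured 1608 and 1454 in the round and 67666 and 72076 in the elongating KO-labelled libraries. Tssk3 and Tssk2 rose by 4.45 ± 0.03 and 3.27 ± 0.03, whereas Tssk4 changed by -2.24 ± 0.05. Spatc1, a centrosomal protein of the neck, and Prkcd rose by 4.94 ± 0.03 and 4.45 ± 0.04, and Ppp3cc, the calcineurin subunit of sperm, fell by 2.54 ± 0.04. Of 39 ubiquitin and proteasome genes 29 rose and 10 fell, with a median of 1.53 (15 and 22 under total scaling). Ubqlnl, a ubiquilin-like gene, went from 2425 and 2604 to 97899 and 92446. The conjugating enzymes Ube2n and Ube2j1 rose by 3.80 ± 0.03 and 3.49 ± 0.03 and the ligase Rnf133 by 3.80 ± 0.04. March11, a membrane ligase, and Uchl3, a hydrolase, fell by 3.06 ± 0.05 and 3.24 ± 0.08. Of 21 autophagy genes 10 rose and 10 fell (5 and 16 under total scaling), against 42.6% and 41.8% of all genes (16.7% and 72.8%). Gabarapl1, Atg9a and Map1lc3a rose by 4.08 ± 0.04, 3.24 ± 0.04 and 2.90 ± 0.04.

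Genes of the chromatoid body, the RNA granule of round spermatids, fell. Of 27, 22 fell and 3 rose, with a median of -1.04 (26 and 1 under total scaling), and none of 15 Tudor and piRNA genes rose. Tdrd6, a scaffold of the granule, measured 13251 and 12721 in the round and 1631 and 1595 in the elongating KO-labelled libraries. Tdrd7 and the helicase genes Ddx4 and Ddx25 changed by -2.78 ± 0.06, -2.45 ± 0.04 and -1.89 ± 0.04, and Mael, a piRNA factor, by -0.49 ± 0.03. Dcp1a, a decapping activator, rose from 167 and 162 to 3312 and 3041. Among 32 genes of mRNA storage and translation control 13 rose and 17 fell (5 and 26 under total scaling). Over all genes the shares were 42.6% and 41.8% (16.7% and 72.8%). Pabpc1, the main poly(A)-binding protein, measured 48419 and 49958 in the round and 6594 and 6498 in the elongating KO-labelled libraries, a change of -2.91 ± 0.03. Ybx2 (MSY2), which packages stored mRNA, rose by 2.20 ± 0.03, whereas its relative Ybx1 fell by 0.40 ± 0.04. Paip2, a poly(A)-binding protein inhibitor, Eif4e, the cap-binding factor, and Fxr1, an activator of stored mRNA, rose by 3.02 ± 0.04, 3.22 ± 0.05 and 3.37 ± 0.03. Dazl and Adad1 fell by 3.17 ± 0.11 and 3.35 ± 0.04. Of 78 cytosolic ribosomal protein genes 55 rose and 15 fell, with a median of 0.96. Under total scaling 13 rose and 58 fell, against 16.7% and 72.8% of all genes. The list median was then -0.98, against -1.87 over all genes. Rpl41 and Rps20 rose in both scalings, by 3.16 ± 0.03 and 3.04 ± 0.04 in deposited values. Mitochondrial ribosomal protein genes gave 21 higher and 45 lower of 77 (1 and 71 under total scaling).

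Genes chosen only by size of change were of mixed kinds. The 12 largest rises with a mean of at least 100 in elongating libraries, no overlap between stages and the same sign under total scaling were Cd74, H2-Eb1, H2-Aa, Car2, Prm2, Azin2, Lrrc57, 1700012A03Rik, Plekho2, 5031439G07Rik, Fuca2 and Tssk6. The first 3, antigen-presentation genes of leukocytes, rose furthest, with log2 changes of 7.65 ± 0.15, 6.27 ± 0.27 and 6.24 ± 0.16. Cd74, the invariant chain, measured 8.90 and 10.1 in the round and 2188 and 2039.8 in the elongating KO-labelled libraries. Car2, a carbonic anhydrase, went from 934 and 953 to 51580.1 and 50493, and Azin2, an antizyme inhibitor, from 1402 and 1405 to 73780.4 and 75064. The most abundant rises over 8-fold were Prm2, Smcp, Tnp2, Odf2, Akap12, Hk1, Gsg1, 4933411K16Rik, Oaz3, Prm1, Reep6 and Tcp11. Akap12, a scaffold of protein kinases A and C, measured 47736 and 47120.2 in the round and 570403 and 567844 in the elongating KO-labelled libraries.

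With the same limits and a mean of at least 100 in round libraries, the 12 largest falls were Gm364, Esco2, 4930480E11Rik, Gm20268, Tmem243, Gm2012, Mthfd2l, 1700041C23Rik, 4930595M18Rik, Fn1, Ssxb1 and Tex16. Gm364, an X-linked gene, measured 387 and 412 in the round and 17.5 and 20.7 in the elongating KO-labelled libraries, a change of -4.32 ± 0.14. Esco2, a cohesin acetyltransferase, went from 144 and 133 to 3.88 and 9.43, and Fn1, fibronectin, from 699 and 648 to 54.3 and 43.4. Ssxb1 has near-identical copies on the X chromosome and its 2 elongating values lay far apart, 1.94 and 20.7, so its change of -3.73 ± 0.60 is uncertain. Of these 12 genes 6 are X-linked. Over all genes tested 4.01% were X-linked, against 12.6% of those that fell over 8-fold (37 of 294) and 5.79% of those that rose over 8-fold. X-linked genes as a whole did not lean to falls: 293 of 629 rose and 247 fell, with a median of 0.23. Single-exon protein-coding genes had a median of 0.38 with 165 of 332 higher and 133 lower, against -0.02 for genes with 2 or more exons, and single-exon genes of all types made up 5.29% of rises over 8-fold and 2.88% of genes tested.

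The stage labels were read against markers. The elongating markers Prm1, Prm2, Tnp1, Tnp2, Odf1, Smcp, Akap4, Gapdhs and Oaz3 were all higher in elongating libraries, and of the 6 round markers Acrv1, Spaca1, Sun5, Spata16 and Lrrc34 were lower there. The remaining round marker, Tssk1, rose by 1.24 in deposited values and fell by 0.70 under total scaling. Spermatocyte markers, 39 genes, took 0.609% and 0.601% of round and 0.0947% and 0.0930% of elongating KO-labelled reads. Of them 33 fell and 4 rose, with a median of -2.21 (38 and 1 under total scaling). Sycp1, of the synaptonemal complex, went from 1215 and 1163 to 153 and 143, Spo11, which makes meiotic breaks, from 604 and 592 to 65.9 and 50.9, and the meiotic chaperone Hspa2 from 25853 and 25041 to 3840 and 3608. Cell-cycle genes followed, with -2.19 ± 0.05 for Ccna1, -2.96 ± 0.05 for Plk1 and -3.60 ± 0.14 for Bub1. Syce2, also a synaptonemal complex gene, rose from 1128 and 1171 to 21370.2 and 20748. Of 19 spermatogonial markers 7 rose and 11 fell (1 and 16 under total scaling). Whether spermatocyte carry-over in the round fraction adds to the falls of other genes was not tested.

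Markers of somatic cells moved the other way. All 23 tested of 25 Sertoli markers rose, with a median of 3.79 (19 rose and 1 fell under total scaling), and together they took 0.00598% and 0.00566% of round and 0.0171% and 0.0172% of elongating reads. Clu went from 67.4 and 74.4 to 2923 and 2996, Sox9 from 1.91 and 2.82 to 83.4 and 88.6 and Wt1 from 9.54 and 8.45 to 229 and 239, while Fshr was at 0 in both round libraries. All 16 macrophage and leukocyte markers rose (15 rose and 1 fell under total scaling), from 0.0315% and 0.0309% to 0.0759% and 0.0771% of reads, and none was at 0. Most of that sum was Aif1, which spermatids also express, at 3378 and 3314 in round and 27402 and 27222 in elongating libraries. Csf1r, the receptor that defines macrophages, went from 34.3 and 27.6 to 324 and 319. Of 20 peritubular, vascular and stromal markers 16 rose and 1 fell (14 and 4 under total scaling), among them Myh11 and Dcn at 3.85 ± 0.14 and 4.64 ± 0.14. Acta2 rose by 2.02 ± 0.16 and was not called under total scaling. All 5 Leydig markers rose (4 rose and none fell under total scaling) from low levels, such as Cyp17a1 from 4.45 and 4.51 to 50.4 and 33.9. Alas2, a red blood cell gene, went from 4.45 and 5.07 to 114 and 149. The part of such cells in the other rises was not tested. Their markers together took under 1% of reads in every library, a share that counts only the listed genes and not the other RNA of such cells.

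**Figure D4:**
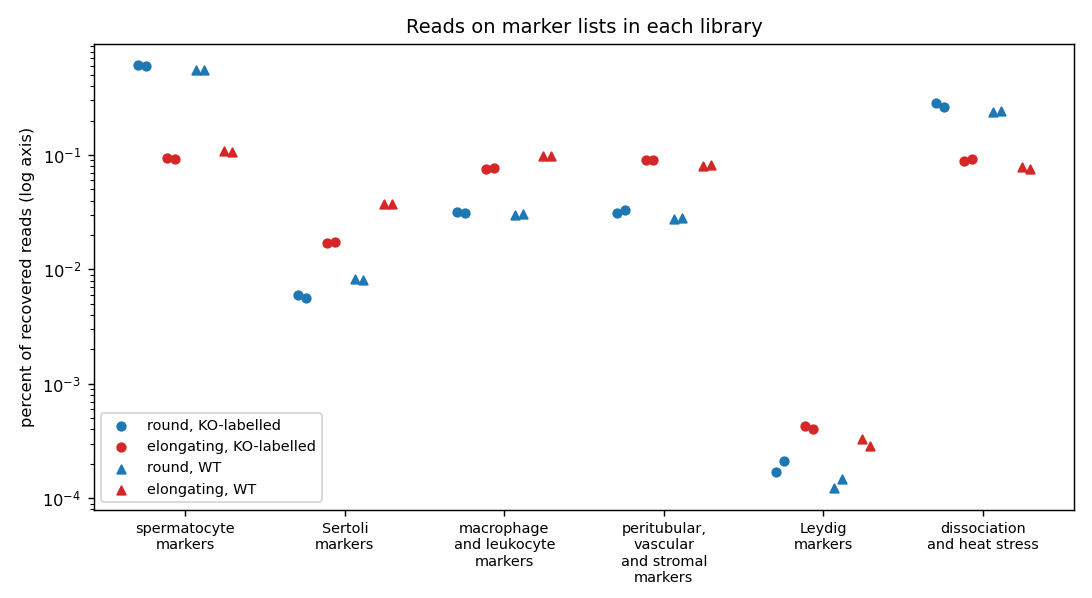
Percent of recovered reads (log axis) on 6 marker lists in each of the 8 libraries, circles for KO-labelled and triangles for WT, blue for round and red for elongating, with 2 points per group. Spermatocyte markers are lower and Sertoli, macrophage and stromal markers higher in elongating libraries of both labels.

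Genes of dissociation and heat stress, 21 in the list, rose in 20 cases and fell in 1, with a median of 3.75 (15 and 3 under total scaling). The immediate early genes Fos, Jun and Egr1 went from 81.4 and 82.3 to 1875 and 2017, from 59.8 and 65.9 to 1222 and 1207 and from 131 and 147 to 2252 and 2451. Hspa1a, a heat-inducible chaperone gene with a near-identical neighbour, rose by 4.23 ± 0.21. The list as a sum took less of the reads in elongating than in round libraries, 0.0888% and 0.0922% against 0.283% and 0.261%. The exception, the chaperone gene Hsp90aa1, went from 24643 and 22217 to 4926 and 4666. Whether handling of the fractions differed was not tested.

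The same stage change was measured in wild-type libraries, and the difference between the 2 changes was tested in the same model. Most genes moved alike in deposited values: 11626 were called in the same direction under both labels, and 180 in opposite directions. These calls were not counted under total scaling. Across the 15685 genes the changes correlated at a Pearson r of 0.93, a description across genes that are not independent and that share 1 scaling per library. The difference was called for 3031 genes with a higher change in KO-labelled cells (19.3%) and 2750 with a lower one (17.5%). Among genes with a called difference, 2216 of those that rose under both labels rose further in KO-labelled cells and 347 less far, and 1870 of those that fell under both fell further and 226 less far. Under total scaling 858 genes had a higher and 7071 a lower change, with the median difference moving from -0.04 to -0.49, so the balance of the directions is set by the scaling.

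**Figure D5:**
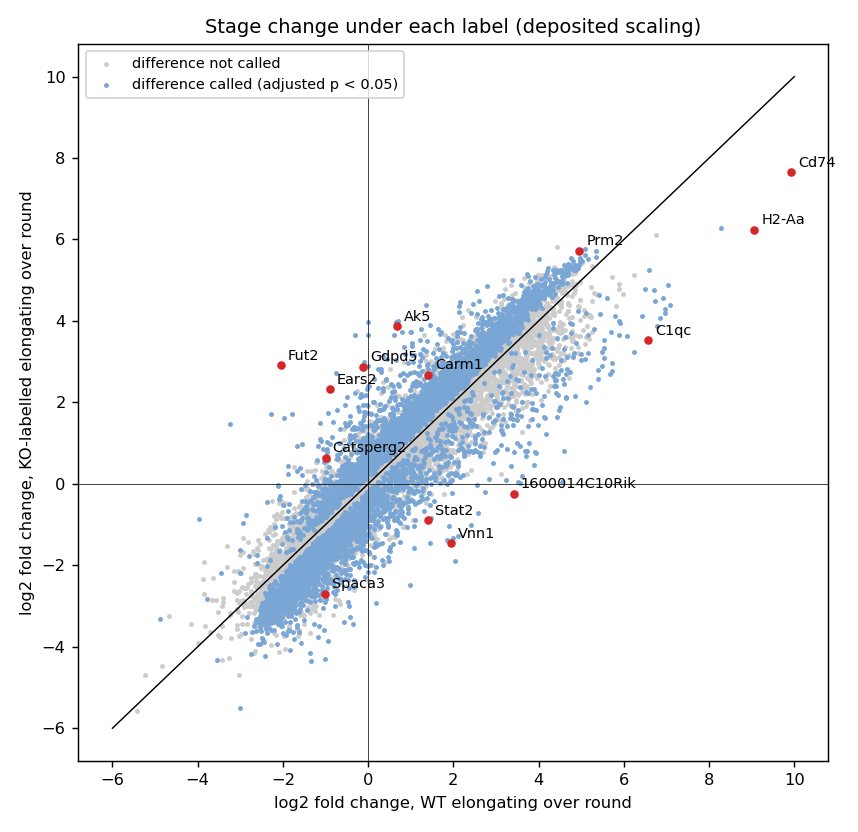
Log2 stage change of each tested gene in WT (horizontal) and KO-labelled (vertical) libraries, blue where the difference was called. Named genes are in red, and the diagonal marks equal changes. Prm2 lies above the diagonal at 4.94 in WT and 5.73 in KO-labelled libraries, and Cd74 and H2-Aa lie below it.

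Of the 26 condensation genes, 14 had a higher and 5 a lower change under the knockout label in deposited values, against 19.3% and 17.5% of all genes. The lower ones included 4 of the 8 core histone variants, and Hils1 was not called. Among the transition proteins and protamines the difference was 0.78 ± 0.03 for Prm2, 0.78 ± 0.04 for Tnp1, 0.59 ± 0.07 for Prm1 and 0.54 ± 0.05 for Tnp2. Under total scaling the differences of Prm1 and Tnp2 were no longer called, at 0.12 and 0.06. Prkar2a rose by 4.16 in WT and by 5.16 in KO-labelled cells, and Carm1 differed by 1.28 ± 0.08. Of 44 acrosome genes, 24 had a lower and 12 a higher change, while of the 12 vesicle and Golgi factors among them 7 were higher and 2 lower. The difference was -1.69 ± 0.09 for Spaca3, -1.37 ± 0.08 for Spaca1 and -1.03 ± 0.08 for Acrv1. The axoneme gene Tekt4 fell by 2.29 in WT and by 3.29 in KO-labelled cells. Crem fell by 0.13 in WT and rose by 0.46 in KO-labelled cells, a difference of 0.59 ± 0.05 that was not called under total scaling.

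Some genes went in opposite directions in deposited values. Catsperg2, a paralog of Catsperg1, fell from 1676 and 1697 to 842 and 842 in WT libraries. It rose from 2253 and 2314 to 3576 and 3567 in KO-labelled libraries, a difference of 1.65 ± 0.06. Under total scaling the KO-labelled change of Catsperg2 was -1.30, a fall. Reads shared between the paralogs could not be assigned from gene totals. Fut2, a fucosyltransferase, showed the largest positive difference, 4.96 ± 0.62, with 4.45 and 6.66 in round WT, 0 and 1.44 in elongating WT, 13.99 and 16.3 in round KO-labelled and 124 and 117 in elongating KO-labelled libraries. In WT this rests on 1 read in elongating and 18 in round libraries, a ratio of 0.122 per size factor (exact 95% interval 0.00293 to 0.772, counting error only). Ears2, a mitochondrial glutamyl-tRNA synthetase, went from 52.8 and 55.1 to 30.9 and 26.0 in WT and from 71.9 and 78.9 to 388 and 373 in KO-labelled libraries. Among lower changes, Vnn1, a pantetheinase, rose from 0.636 and 0 to 2.58 and 5.77 in WT and fell from 132 and 129 to 44.6 and 49.0 in KO-labelled libraries. Its WT ratio of 13.2 rests on 6 and 1 reads (exact 95% interval 1.60 to 606). In deposited values Stat2, of interferon signalling, rose by 1.40 in WT and fell by 0.89 in KO-labelled cells. Under total scaling its KO-labelled change was -2.82 and its difference from WT -2.79, which leaves no WT rise. Macrophage markers rose less in KO-labelled than in WT cells. Their difference was lower for 13 of 16 and higher for 1, with a median of -1.85. For 23 Sertoli markers it was higher for 3 and lower for 4. As a share of reads, Sertoli markers were lower under the knockout label, at 0.0171% and 0.0172% of elongating KO-labelled against 0.0371% and 0.0372% of elongating WT reads. In round libraries they took 0.00598% and 0.00566% in KO-labelled against 0.00833% and 0.00803% in WT. Csf1r had a difference of -2.19 ± 0.20 and C1qa, a complement gene of macrophages, -2.76 ± 0.33.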

How the data were processed

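The members and gene lists were chosen with earlier results of these data known. Per the submitters' processing notes, DESeq 1.16.0, HTSeq 0.6.0, TopHat2 2.0.10 and CASAVA 1.8.2 were used, on builds mm10 and GRCm38. Their settings, including strand and reads with several matches, are not stated there, and the TruSeq v2 kit named in the labels' protocols does not mark strand. The deposited values are a normalised signal per gene and library, and their steps show whole reads scaled by 1 factor per library. Taking the smallest nonzero value of a library as 1 read gave whole reads for 100% of values at a tolerance of 1e-06, and recovered reads ranged from 17190962 to 23526694 per library.

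Genes reaching a value of 10 in 2 or more libraries entered limma 3.58.1, run in R 4.3.3 on log2(value + 1) with a trended prior. All 8 libraries entered a model of 4 group means. The planned test for normalised values was kept as the main one, and the count test on recovered reads was an alternative: edgeR 4.0.16 called 6322 genes higher and 7006 lower, and DESeq2 1.42.0 called 6341 and 5966. The procedure was tested on simulated data. Total scaling divided each library by its summed values. Positions and exon lengths came from GENCODE M21, which matched 16209 of 16349 symbols, and promoters from RefSeq on GRCm38.p6. Percentages of reads are shares of a library's recovered reads, and every interval covers counting error only.

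Named genes were Carm1, the 12 largest rises and falls with a higher group mean of at least 100, no overlap and the same sign under total scaling, the 12 genes with the most reads per kb at each stage, the 12 most abundant rises over 8-fold, the 8 largest differences between labels in each direction and the 5 largest among opposite calls, and members of 31 lists. The rule also named 1 gene that is not reported here. Alternatives were other scalings, pseudocounts, filters, tests, sample sets, a replicate block and each library left out. Stage markers were Acrv1, Spaca1, Tssk1, Sun5, Spata16 and Lrrc34 for round and Prm1, Prm2, Tnp1, Tnp2, Odf1, Smcp, Akap4, Gapdhs and Oaz3 for elongating cells. X- and Y-linked multicopy genes gave 4 higher and 2 lower of 6 tested (2 and 3 under total scaling), the 7 arginine methyltransferase genes 3 and 2 (2 and 4), and the 2 epididymal markers 1 and 1 (0 and 1).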

Additional observations from a re-analysis of the deposited data

Results flagged for a closer look

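Each gene here had a stage change that differed between KO-labelled and WT libraries by the test of the difference itself (limma, Benjamini-Hochberg adjusted over 15685 genes). Differences are log2, KO-labelled minus WT, with n = 2 libraries per group.

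Higher changes in KO-labelled cells were measured for Fut2 (4.96), Ears2 (3.23), Ak5 (3.20), Gdpd5 (2.99), Ppp2r2c (2.63), Nkd1 (2.63), Acap1 (2.54) and Wdr76 (2.53). Gdpd5, a glycerophosphodiesterase, went from 173 and 188 to 159 and 176 in WT and from 118 and 135 to 912 and 956 in KO-labelled libraries. In Ak5, an adenylate kinase, the WT libraries of the 2 stages overlapped, at 12.1 and 24.2 and 36.1 and 21.6, and the KO-labelled ones did not, at 17.8 and 9.01 and 209 and 190.4. The rises of Ppp2r2c, Nkd1, Acap1 and Wdr76 in KO-labelled libraries were not called under total scaling, while their differences from WT stayed called.

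Lower changes were measured for 1700063D05Rik (-3.91), 1600014C10Rik (-3.65), Vnn1 (-3.41), Slfn5os (-3.14), C1qc (-3.04), Tgfbr2 (-3.01), Cd72 (-2.89), H2-Aa (-2.82), Cntfr (-2.31), Stat2 (-2.29) and Pctp (-2.11). 1700063D05Rik measured 200.4 and 226 in round and 917 and 831 in elongating WT libraries, while the KO-labelled libraries held 9 reads in round and 0 in elongating cells, a ratio whose exact 95% upper limit is 1.62. Slfn5os, an antisense gene whose reads cannot be told from those of its partner without strand, rose in WT from 102 and 100.5 to 994 and 923. It held 2 and 1 reads in round and elongating KO-labelled libraries, a ratio of 1.60 (exact 95% interval 0.0271 to 30.7), and its difference was not called by edgeR (-2.66, adjusted p = 0.235) or DESeq2 (-2.56, adjusted p = 0.287). 1600014C10Rik and Vnn1 had higher values under the knockout label at both stages. 1600014C10Rik measured 1.27 and 0.605 in round WT, 25.8 and 14.4 in elongating WT, 139.9 and 125 in round and 109 and 115 in elongating KO-labelled libraries. Its WT ratio of 21.9 rests on 30 and 3 reads (exact 95% interval 6.82 to 112).

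C1qc, Cd72 and H2-Aa are leukocyte genes, and Tgfbr2 a receptor of many somatic cells. H2-Aa went from 3.18 and 2.42 to 2017 and 2025 in WT and from 8.90 and 11.3 to 842 and 828 in KO-labelled libraries. Cd72 had 0 reads in round WT and 160 in elongating WT libraries, a ratio whose exact 95% lower limit is 94.1. Macrophage and leukocyte markers together took 0.0980% and 0.0971% of elongating WT reads, against 0.0759% and 0.0771% of elongating KO-labelled reads. Aif1, which spermatids also express, made up most of the KO-labelled sum, and over the list the median difference was -1.85, with 13 of 16 lower. The part of such cells in these differences was not tested.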

How the results depend on the processing

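The direction of the totals depended on the scaling. With total-count scaling, and in brackets with library sizes that leave out each group's 50 leading genes, 2617 (3410) genes rose and 11422 (10382) fell, 1837 (2462) rose and 10121 (8955) fell over 2-fold, and the stage change was higher in KO-labelled than in WT cells for 858 (1063) genes and lower for 7071 (6393). TMM scaling, edgeR, DESeq2, both other pseudocounts, both other filters and the fit of KO-labelled libraries alone kept these counts within 1.5 times of the reported ones, except that the last gives no difference from WT. Leaving out each library in turn gave 6324 to 6669 genes higher, 6088 to 6600 lower, 5108 to 5215 and 4553 to 4685 over 2-fold, and 2586 to 3143 and 2041 to 3111 for the difference. The replicate numbers do not pair the samples by any label. Deviations of same-numbered libraries correlated at 0.03 in KO-labelled and -0.0046 in WT cells, and the model with a replicate block called 6655 genes higher and 6539 lower and changed no call of a named gene. Named genes that changed sign under total-count scaling (and without the 50 most abundant genes) were Ldhc at -1.53 (-1.05), Meig1 -0.90 (-0.42), Brdt -1.60 (-1.13), Psme4 -0.75 (-0.27), Crem -1.48 (-1.01), Fhl5 -0.56 (-0.083), Odf3 -1.91 (-1.43), Akap3 -0.69 (-0.21), Hydin -0.68 (-0.20), Spag17 -0.85 (-0.37), Catsperg2 -1.30 (-0.82), Tssk1 -0.70 (-0.22) and Catsperd -1.92 (-1.45). Under total-count scaling alone Nkd1 (-0.42), Wdr76 (-0.11), Chd5 (-0.46), Rfx2 (-0.36), Sox30 (-0.35) and Tcfl5 (-0.36) did so. Odf3 and Catsperd, which were not called, were lower with TMM (-0.12 and -0.14) and edgeR (-0.13 and -0.14). Slfn5os, at 3 reads in all in KO-labelled libraries, was not called at 0.087 or, with total-count scaling, at -0.58, and ranged from -0.68 to 0.85 when 1 elongating KO-labelled library was left out. Depth limits genes near the filter, such as 1700063D05Rik, whose fall DESeq2 did not call.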
